A study of Bos indicus and Bos taurus with 17 samples.

Results

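The genes described here are the amino acid transporters of 7 solute carrier families (SLC1, SLC3, SLC6, SLC7, SLC36, SLC38 and SLC43) in cells isolated from cow milk. They were chosen by symbol alone, without use of their values. The expression table held 21631 distinct gene names, and 56 of them belonged to these families (18 in SLC6, 12 in SLC7, 11 in SLC38, 7 in SLC1, 4 in SLC36, and 2 each in SLC3 and SLC43). Of the 56 transporters, 32 reached 1 FPKM (a level counted in sequenced fragments and scaled to transcript length and to the size of the library) in at least 1 group. Ratios are given only for these 32.

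Milk protein synthesis in the mammary gland draws amino acids from blood across the basolateral membrane of the secretory epithelial cell. SLC7 light chains exchange amino acids across the membrane only when joined to a heavy chain, SLC3A2 (CD98) or SLC3A1. Exchangers such as SLC1A5 and SLC7A5 swap one amino acid for another, whereas SLC38 carriers use the sodium gradient to load the cell with small neutral amino acids. SLC36 carriers are driven by protons, SLC43 carriers move large neutral amino acids down their gradient, and the SLC6 family holds carriers of amino acids, taurine, betaine and neurotransmitters. Neutrophils, macrophages and lymphocytes, which milk also carries, use several of the same transporters.

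RNA was sequenced from milk cells prepared as epithelial cells, taken from cattle of the Kashmiri and Jersey breeds on day 15 (D15), day 90 (D90) and day 250 (D250) of lactation. The labels name 17 samples, 3 in each group of breed and day except 2 for Jersey D90. According to the study's methods, the cells were captured from fresh milk with beads carrying an antibody to KRT18, a keratin of luminal epithelium. The labels give the cows as lactating for the 2nd or 3rd time, in a mixture that differed between groups (all of Kashmiri D90 and Jersey D250 were in lactation 2), and nothing in them ties a cow of one stage to a cow of another. The study's methods instead describe a single set of cows per breed that was milked on each of the days, all in the same lactation, and more libraries than the labels name. All D15 samples carry the month of March, all D90 samples July and all D250 samples December, so that stage and season cannot be told apart. Ages of the cows and treatments are not given. The table holds 1 FPKM value per gene and group, in which the cows of a group were combined. The columns call the breeds Local and Jersey, and Local was taken to be Kashmiri. There is therefore no spread between cows, no standard error and no test, the depth behind a value is unknown, and every ratio below is a ratio of 2 group values.

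The groups differed in their cell markers, and transcripts of leukocyte markers were found in all of them. The summed FPKM of 13 epithelial markers (KRT19, ELF5, KRT8, KRT18, EPCAM and others) was 6190 on Kashmiri D15, 772 on D90 and 2718 on D250, against 2800 (2799.5), 106 and 1474 in Jersey. KRT19 (3195 FPKM) and ELF5 (1799 FPKM) made up most of the sum on Kashmiri D15. KRT8, on an entry shared with KRT4, and CLDN4 were highest on Jersey D15. EPCAM, CDH1 and ESRP1 were highest on Kashmiri D250, and the other markers on Kashmiri D15. KRT18 itself was between 1.59 FPKM on Jersey D90 and 51.3 FPKM on Kashmiri D15. The sum of 9 neutrophil markers was 193, 553 and 671 in Kashmiri and 5136, 6418 and 14508 in Jersey on the same days. The sum of 12 macrophage markers ran from 148 on Kashmiri D15 to 2493 on Jersey D90, where CD68 alone was at 1211 FPKM. AIF1, C1QA, C1QB and C1QC were instead highest on Jersey D15, and the other macrophage markers on Jersey D90 or D250. The sum of 12 T and NK cell markers was highest on Kashmiri D90, at 1801, and the sum of 8 B cell markers ran from 8.77 to 70.5. None of the 4 red blood cell markers found reached 1 FPKM. In such bulk values, fewer cells of a type and less RNA per cell cannot be told apart. The FPKM of all entries summed to between 533249 (Kashmiri D250) and 1.02315e+06 (Kashmiri D15), and scaling each group to this sum without the milk protein genes shifted the median over all genes (log2 ratio) by over 0.1 in all 9 comparisons. The shift was widest for Kashmiri D250 over D15, from -0.04 to 0.77, and for Jersey over Kashmiri on D250, from -0.10 to -0.75. Rescaling by the upper quartile moved the last of these to -0.52. GAPDH, often used as a reference gene, was listed at 0 in 4 of the 6 groups. The milk protein genes CSN2, CSN1S1 and PAEP were listed at 0 in every group except Jersey D90, and CSN3 and LALBA in some groups. The study describes casein and whey genes as highly expressed at every stage in both breeds. A listed 0 may thus be a failed estimate, and no ratio of a single gene to a listed 0 is given here. Counts and medians over lists of genes and over all genes include such values. The 5 milk protein genes found summed to between 1817 FPKM (Jersey D15) and 13031 FPKM (Kashmiri D250). Leaving them out changed the sums of all entries little, so that scaling to the sum is not a correction for milk protein transcripts.

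Across the 56 transporters a small number of genes carried most of the measured transcript. Their summed FPKM was 459 on Kashmiri D15, 290 (289.8) on D90 and 283 on D250, and 496, 446 and 705 in Jersey. The 5 most abundant members made up between 60.5% (Kashmiri D250) and 84.2% (Kashmiri D15) of that sum. The leading gene was SLC7A4 on Kashmiri D15, with 26.5% of the sum, and SLC3A2 on Kashmiri D90, with 25.1%. SLC1A5 led in the other 4 groups, with 19.3% on Kashmiri D250, 30.2% on Jersey D15, 30.0% on Jersey D90 and 38.8% on Jersey D250. Only SLC1A5, SLC3A2, SLC7A5, SLC38A2 and SLC38A10 were at or above 10 FPKM in all 6 groups (8.93% of members, against 13.9% of all names), and 15 members were at or above 1 FPKM in all groups (26.8%, against 39.6%). The share reaching 1 FPKM in any group was 57.1% for the members and 57.1% for all names.

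**Figure D1:**
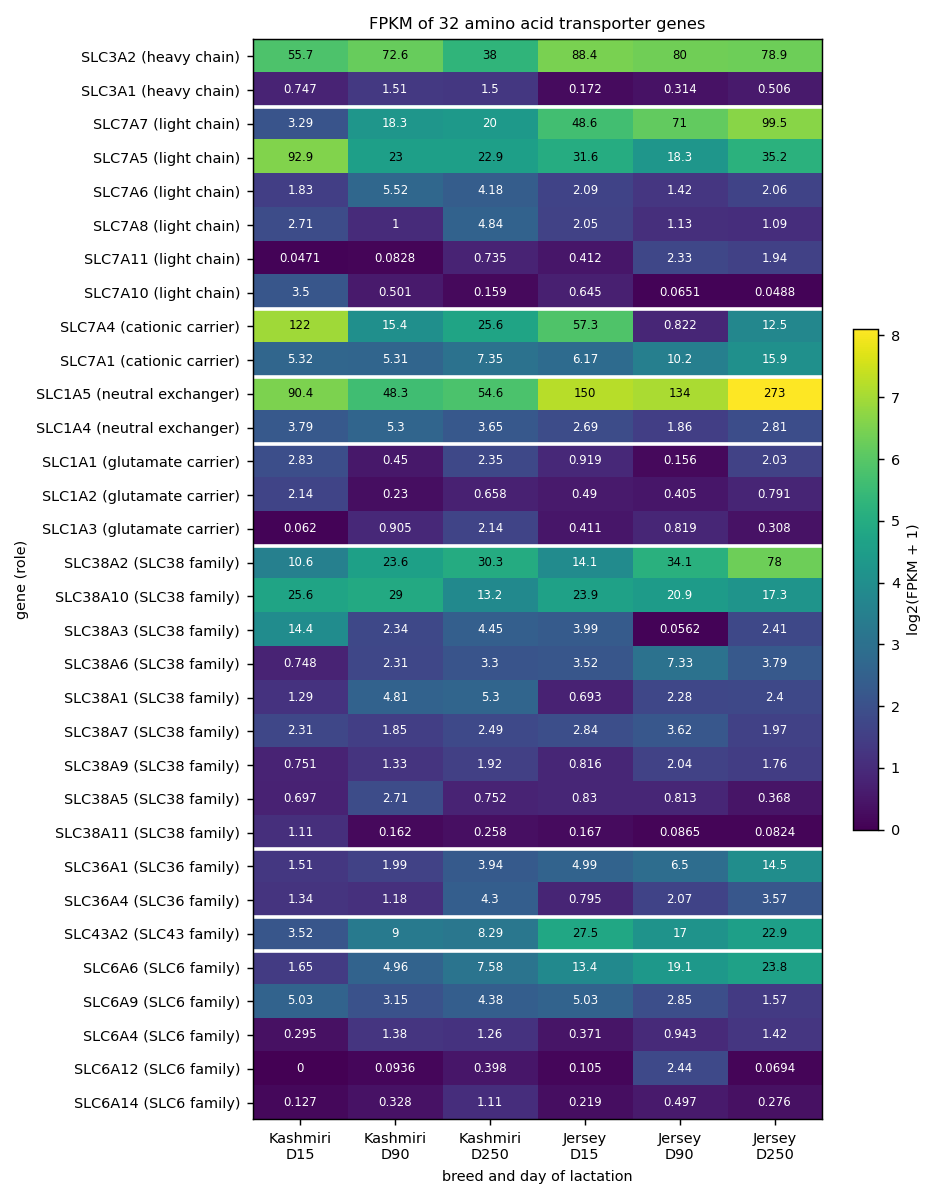
FPKM of the 32 amino acid transporters that reached 1 FPKM in at least 1 group, in rows by family and role, with the 6 groups of breed and day in columns; the color scale is log2(FPKM + 1) and the printed number is the FPKM. SLC7A4 and SLC7A5 are brightest on Kashmiri D15, and SLC1A5 on Jersey D250.

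The heavy chain SLC3A2, which carries most SLC7 light chains to the plasma membrane, was among the most even of the abundant members. It was at 55.7 FPKM on Kashmiri D15, 72.6 on D90 and 38.03 on D250, and at 88.4, 80.0 and 78.9 FPKM in Jersey. Jersey was higher on all 3 days, by a ratio of 1.10 on D90, the closest of the days. SLC3A1, the heavy chain of the cystine carrier of kidney and gut, was near the limit of 1 FPKM, with 0.747, 1.51 and 1.502 in Kashmiri and 0.172, 0.314 and 0.506 in Jersey. Its partner light chain SLC7A9 did not exceed 0.00993 FPKM.

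The light chains differed most in their balance. SLC7A5 (LAT1), which exchanges large neutral amino acids such as leucine against glutamine, was at 92.9 FPKM on Kashmiri D15 and at 23.0 and 22.9 on D90 and D250. In Jersey it was at 31.6, 18.3 and 35.2 FPKM. SLC7A7 (y+LAT1), which exports arginine and lysine in exchange for neutral amino acids and is known from macrophages and epithelia, was at 3.29, 18.3 and 20.01 FPKM in Kashmiri and at 48.6, 71.0 and 99.5 in Jersey. Of these 2 partners of SLC3A2, Kashmiri D15 thus held the highest level of SLC7A5 and the lowest of SLC7A7. SLC7A5 made up 89.1% of the summed FPKM of the 7 light chains on Kashmiri D15, 47.5% on D90 and 43.3% on D250. In Jersey it made up 37.0%, 19.4% and 25.2%. SLC7A7 made up 3.15%, 37.8% and 37.9% in Kashmiri and 56.9%, 75.3% and 71.2% in Jersey. Within a group the ratio of SLC7A7 to SLC7A5 does not depend on how the groups are scaled, and it was 0.0354, 0.796 and 0.875 in Kashmiri and 1.54, 3.88 and 2.83 in Jersey. SLC7A7 was therefore below SLC7A5 in all 3 Kashmiri groups and above it in all 3 Jersey groups, and the highest of these ratios was 109.6 times the lowest.

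The summed light chains were at 104, 48.4 and 52.8 FPKM in Kashmiri and at 85.4, 94.3 and 139.8 FPKM in Jersey. The level of SLC3A2 over that sum was 0.534, 1.4997 and 0.720 in Kashmiri and 1.03, 0.849 and 0.565 in Jersey. The heavy chain thus varied less against its partners together than these did against each other.

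**Figure D2:**
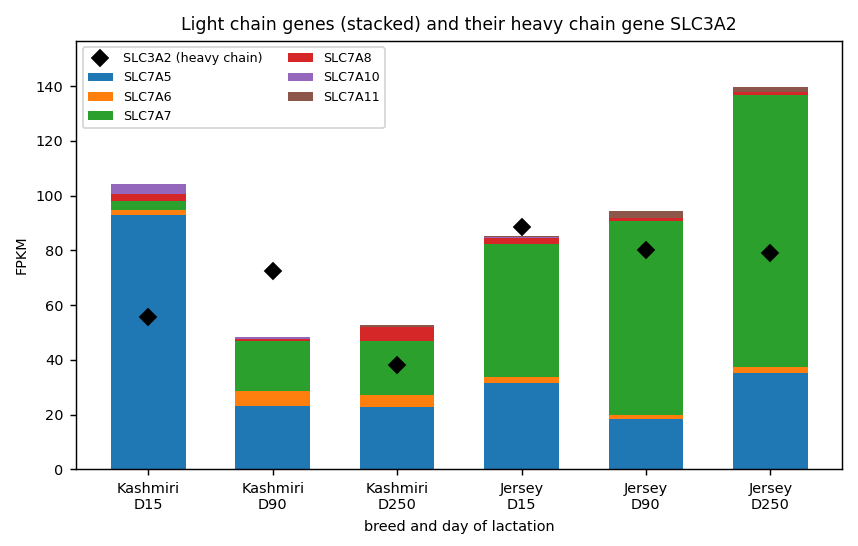
Summed FPKM of the light chains of the SLC7 family as stacked bars for each group of breed and day, with the FPKM of the heavy chain SLC3A2 as diamonds. SLC7A5 fills 89.1% of the bar on Kashmiri D15, and SLC7A7 fills 56.9% to 75.3% of the 3 Jersey bars.

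The remaining light chains stayed at or below 5.52 FPKM. SLC7A6, a second exchanger of cationic and neutral amino acids, was at 1.83, 5.52 and 4.18 FPKM in Kashmiri and at 2.09, 1.42 and 2.06 in Jersey. SLC7A8 (LAT2), a carrier of small and large neutral amino acids, was at 2.71, 1.00 and 4.84 FPKM in Kashmiri and at 2.05, 1.13 and 1.09 in Jersey. These 2 genes were highest in a Kashmiri group of D90 and D250, respectively. SLC7A10, which carries small neutral amino acids including serine, was at 3.50 FPKM on Kashmiri D15 and below 1 FPKM in the other 5 groups (0.501 and 0.159 on the later Kashmiri days, and 0.645, 0.0651 and 0.0488 in Jersey). SLC7A11, which imports cystine in exchange for glutamate, was at 0.0471, 0.0828 and 0.735 FPKM in Kashmiri and at 0.412, 2.33 and 1.94 in Jersey, so that it passed 1 FPKM only on the later Jersey days.

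Among the members of the cationic branch, SLC7A4 had a wide range. SLC7A4 resembles the cationic carriers in sequence, but its transport activity is not settled. It was at 122 FPKM on Kashmiri D15, 15.4 on D90 and 25.6 on D250, and at 57.3, 0.822 and 12.5 FPKM in Jersey. It was lower on D90 than on D15 by 7.93-fold in Kashmiri and by 69.7-fold in Jersey, with D250 between both. SLC7A1 (CAT1), the widely expressed importer of arginine and lysine, was at 5.31 (5.315), 5.31 and 7.35 FPKM in Kashmiri and at 6.17, 10.2 and 15.9 in Jersey, so that its D15 and D90 levels in Kashmiri were nearly equal. The ratio of SLC7A4 to SLC7A1 within a group was 22.9, 2.90 and 3.48 in Kashmiri and 9.29, 0.0809 and 0.788 in Jersey. SLC7A2, SLC7A3 and SLC7A14 had highest values of 0.0356, 0.00216 and 0.0232 FPKM.

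SLC1A5 (ASCT2), the exchanger that supplies glutamine, was the most abundant member over the series as a whole. It was at 90.4, 48.3 and 54.6 FPKM in Kashmiri and at 149.5, 134 and 273 in Jersey. Each Jersey group was above all 3 Kashmiri groups, and the ratio of Jersey to Kashmiri was 1.65 on D15, 2.77 on D90 and 5.01 on D250. SLC1A4 (ASCT1), a serine and alanine exchanger, was the reverse in direction, with 3.79, 5.30 and 3.65 FPKM in Kashmiri and 2.69, 1.86 and 2.81 in Jersey. SLC1A5 over SLC1A4 within a group was 23.8, 9.10 and 15.0 in Kashmiri and 55.5, 72.0 and 97.4 in Jersey.

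The glutamate carriers of the SLC1 family were low. SLC1A1 (EAAT3), the glutamate and cysteine carrier of epithelia and neurons, was at 2.83, 0.450 and 2.35 FPKM in Kashmiri and at 0.919, 0.156 and 2.03 in Jersey. It was lowest on D90 in both breeds. SLC1A2, the main glutamate carrier of astrocytes, was at 2.14, 0.230 and 0.658 FPKM in Kashmiri and at 0.490, 0.405 and 0.791 in Jersey. SLC1A3, a second glial glutamate carrier, was at 0.0620, 0.905 and 2.14 FPKM in Kashmiri and at 0.411, 0.819 and 0.308 in Jersey. SLC1A2 and SLC1A3 each passed 1 FPKM in a single group, Kashmiri D15 and Kashmiri D250. SLC1A7 did not exceed 0.128 FPKM, and SLC1A6 was listed at 0 in all groups.

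In the SLC38 family, SLC38A2 and SLC38A3 differed in both their order over the days and their order between the breeds. SLC38A2 (SNAT2), the carrier of system A that cells induce when amino acids are short, was at 10.6, 23.6 and 30.3 FPKM in Kashmiri and at 14.1, 34.1 and 78.0 in Jersey. It was higher on each later day in both breeds, and higher in Jersey on each day. SLC38A3 (SNAT3), a system N carrier of glutamine and histidine, was at 14.4, 2.34 and 4.45 FPKM in Kashmiri and at 3.99, 0.0562 and 2.41 in Jersey. Like SLC7A4 it was lowest on D90 in both breeds and lower in Jersey on each day. The ratio of SLC38A2 to SLC38A3 within a group ran from 0.738 on Kashmiri D15 to 606 on Jersey D90. The size of the latter rests on SLC38A3 at 0.0562 FPKM, a level too low to be judged.

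SLC38A10, a broadly expressed member of the family, was the most even of its abundant genes. It was at 25.6, 29.0 and 13.2 FPKM in Kashmiri and at 23.9, 20.9 and 17.3 in Jersey. SLC38A1 (SNAT1), a glutamine importer prominent in neurons and lymphocytes, was at 1.29, 4.81 and 5.30 FPKM in Kashmiri and at 0.693, 2.28 and 2.40 (2.395) in Jersey. SLC38A6, a little-studied member, was at 0.748, 2.31 and 3.30 FPKM in Kashmiri and at 3.52, 7.33 and 3.79 in Jersey. SLC38A6 was higher and SLC38A1 lower in Jersey on all 3 days as deposited, but SLC38A6 was lower in Jersey on D250 after either rescaling.

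SLC38A7, a carrier of the lysosomal membrane that exports glutamine, was between 1.85 and 3.62 FPKM in all 6 groups. SLC38A9, the lysosomal arginine sensor upstream of mTORC1, was at 0.751, 1.33 and 1.92 FPKM in Kashmiri and at 0.816, 2.04 and 1.76 in Jersey. Both lysosomal genes were thus present at low levels throughout, with SLC38A9 below 1 FPKM on D15 in each breed. SLC38A5, a system N carrier of glutamine and serine, was at 2.71 FPKM on Kashmiri D90 and between 0.368 and 0.830 in the other groups. SLC38A11 was at 1.11 FPKM on Kashmiri D15 and at or below 0.258 elsewhere. SLC38A4 and SLC38A8 did not exceed 0.143 and 0.0980 FPKM.

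Of the proton-coupled SLC36 family, SLC36A1, which releases small amino acids from lysosomes and takes part in mTORC1 activation, was at 1.51, 1.99 and 3.94 FPKM in Kashmiri and at 4.99, 6.50 and 14.5 in Jersey. It was higher on each later day in both breeds, and its Jersey levels as deposited all lay above its Kashmiri levels, which was not so after rescaling the groups by the upper quartile or the sum. SLC36A4 was at 1.34, 1.18 and 4.30 FPKM in Kashmiri and at 0.795, 2.07 and 3.57 in Jersey, highest on D250 in both breeds. SLC36A2 and SLC36A3, whose known sites are kidney and testis, had highest values of 0.00904 and 0.00808 FPKM.

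The facilitator SLC43A2 (LAT4), which lets branched-chain amino acids and phenylalanine leave cells, was at 3.52, 8.999 and 8.29 FPKM in Kashmiri and at 27.5, 17.0 and 22.9 in Jersey. The Jersey values all lay above the Kashmiri values, also after both rescalings, and the gap was widest on D15, at 7.81-fold. SLC43A3, whose known cargo is purine bases rather than amino acids, did not exceed 0.432 FPKM.

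Of the 18 SLC6 genes, 5 reached 1 FPKM. SLC6A6 (TauT), the taurine carrier, was at 1.65, 4.96 and 7.58 FPKM in Kashmiri and at 13.4, 19.1 and 23.8 in Jersey, with no overlap of the breeds under any scaling used. It was higher on each later day in both breeds, except that Jersey D250 was below D90 after rescaling to the sum. SLC6A9 (GlyT1), a glycine carrier, was at 5.03, 3.15 and 4.38 FPKM in Kashmiri and at 5.03, 2.85 and 1.57 in Jersey. SLC6A4, the serotonin carrier, was at 0.295, 1.38 and 1.26 FPKM in Kashmiri and at 0.371, 0.943 and 1.42 in Jersey. Its name stands on 2 entries, of which the higher is given. The betaine and GABA carrier SLC6A12 was at 2.44 FPKM on Jersey D90, was listed at 0 on Kashmiri D15 and did not exceed 0.398 in the other 4 groups. SLC6A14, a broad carrier of neutral and cationic amino acids found in lung, gut and mammary epithelium, was at 1.11 FPKM on Kashmiri D250 and at or below 0.497 elsewhere.

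The other 13 SLC6 genes stayed below 1 FPKM in all groups. SLC6A2, the noradrenaline carrier, came closest, with 0.804 FPKM on Jersey D250. SLC6A20, a proline carrier whose name stands on 2 entries, reached 0.440 FPKM, SLC6A17 reached 0.246 and SLC6A16 reached 0.114. SLC6A11 and SLC6A13, carriers of GABA, had highest values of 0.00475 and 0.0339 FPKM, and the dopamine carrier SLC6A3 of 0.0795. The glycine carrier SLC6A5 and the proline carrier SLC6A7 reached 0.0110 and 0.00528 FPKM, SLC6A15 reached 0.0283, and the kidney and gut carriers SLC6A18 and SLC6A19 reached 0.0140 and 0.0486. Of all 56 members, 19 were listed at 0 in at least 1 group, and 18 of these 19 were among the 24 that stayed below 1 FPKM.

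**Figure D3:**
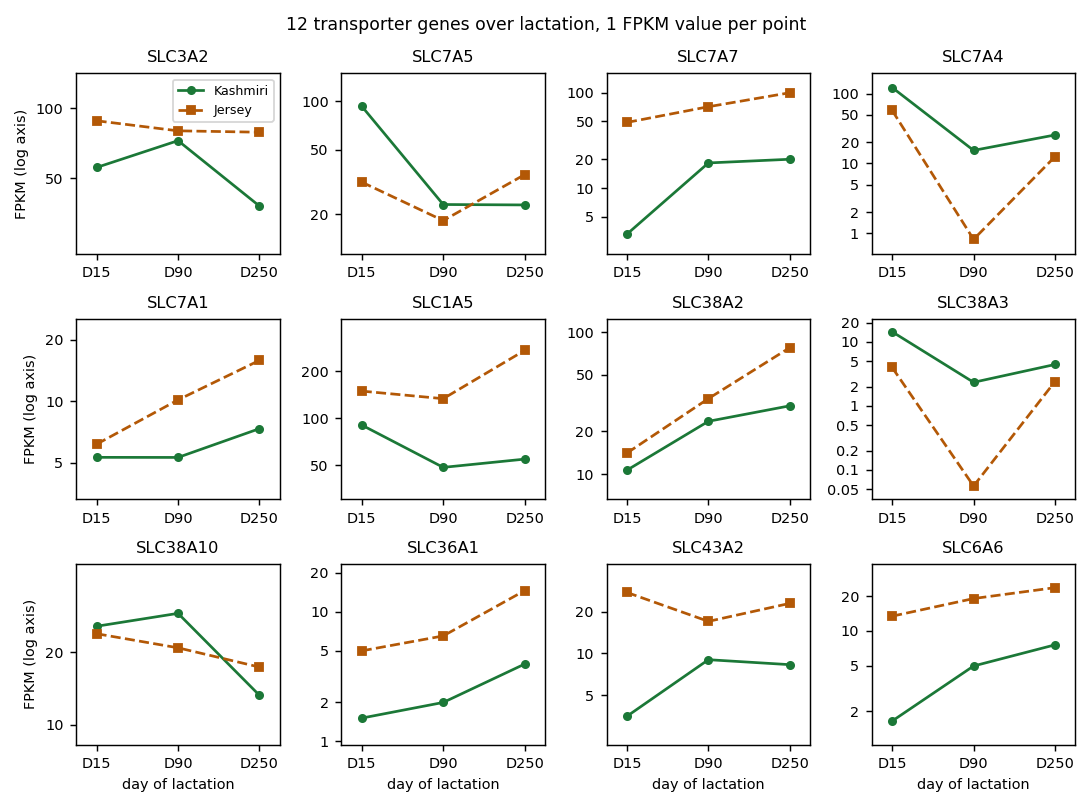
FPKM of 12 transporters against day of lactation (D15, D90, D250), with 1 panel per gene, each with its own log axis, and 1 line per breed; each point is 1 group value without error. SLC7A4 and SLC38A3 are lowest on D90 in both breeds, whereas SLC38A2, SLC36A1 and SLC7A7 are higher on each later day in both.

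The days were compared within each breed by the log2 ratio of FPKM with a pseudocount of 1, which understates the ratio of low genes, over genes with at least 1 FPKM in either group. A gene was counted when this ratio was at least 2 in size (4-fold), and again at a size of 1 (2-fold). From D15 to D90 in Kashmiri, 3 of 28 members passed 4-fold, and 7.5% of all genes did. SLC7A7 was higher (2.17), and SLC7A4 (-2.91) and SLC38A3 (-2.21) were lower. At 2-fold, 13 of the 28 members were counted (46.4%, against 33.5% of all genes). SLC38A1, SLC7A6, SLC6A6, SLC43A2, SLC38A5 and SLC38A2 joined the higher genes, and SLC7A5, SLC7A10, SLC1A1 and SLC1A2 the lower. SLC7A5 lay just short of the 4-fold limit at -1.97. The median over the 28 members was 0.21, against -0.01 over all genes.

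From D90 to D250 in Kashmiri no member of 27 passed 4-fold, where 1.98% of all genes did. At 2-fold, SLC7A8 (1.54), SLC36A4 (1.28) and SLC1A1 (1.21) were higher and SLC38A5 (-1.08) and SLC38A10 (-1.07) lower, 18.5% of members against 17.7% of all genes. The median was 0.32, against 0.03. Between D15 and D250 in Kashmiri, SLC7A7 (2.29) was higher and SLC7A4 (-2.21) lower by over 4-fold, 2 of 29 members, where 4.05% of all genes passed. SLC7A4 was no longer past this limit when the groups were rescaled by their upper quartile (-1.95) or by their sum (-1.27), whereas SLC7A7 was past it under both (2.55 and 3.13). At 2-fold, 12 of 29 members were counted (41.4%, against 25.7% of all genes), of which 8 were higher (11.2% of all genes) and 4 lower (14.5%). The median over the members was 0.52, against -0.04 over all genes.

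In Jersey, SLC7A4 (-5.00) and SLC38A3 (-2.24) were lower by over 4-fold on D90 than on D15, 2 of 23 members, where 6.76% of all genes passed. Both were also lower by that limit in Kashmiri over the same interval. SLC6A12 (1.64), SLC7A11 (1.24) and SLC38A2 (1.22) were higher by over 2-fold, and with them 21.7% of members passed that limit, against 29.8% of all genes. From D90 to D250, SLC7A4 was higher (2.89), 1 of 25 members, where 4.18% of all genes passed. SLC38A3 (1.69), SLC1A1 (1.39), SLC38A2 (1.17), SLC36A1 (1.05) and SLC1A5 (1.03) were higher by over 2-fold and SLC6A12 (-1.69) was lower, so that 28.0% of members passed against 20.9% of all genes. Between D15 and D250, SLC38A2 was higher (2.39) and SLC7A4 lower (-2.11) by over 4-fold, 2 of 24 members, where 12.6% of all genes passed. At 2-fold, 9 members were counted (37.5%, against 42.4% of all genes), 7 of them higher (24.5% of all genes). The Jersey medians over the members were 0.27, 0.34 and 0.38 for these 3 comparisons, against -0.07, 0.15 and 0.07 over all genes.

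The share of transporters that were lowest on D90 was near that of all genes. In Kashmiri 11 of 30 members were lower on D90 than on both other days (36.7%, against 34.7% of all genes), and in Jersey 8 of 25 (32%, against 27.6%). By at least 2-fold on both sides, this held for SLC1A1 in Kashmiri (5.57% of all genes) and for SLC7A4 and SLC38A3 in Jersey (3.69% of all genes). A higher value on each later day was found for 9 of 30 members in Kashmiri (30%, against 17.9% of all genes) and for 8 of 25 in Jersey (32%, against 31.4%). SLC6A6, SLC7A7, SLC36A1, SLC38A1 and SLC38A2 were in both sets, although SLC38A1 left the Jersey set after either rescaling and SLC6A6 after that to the sum. A lower value on each later day was found in Kashmiri for SLC7A5 and SLC7A10 (14.8% of all genes) and in Jersey for SLC3A2, SLC6A9, SLC7A8 and SLC38A10 (24.1% of all genes). After both rescalings SLC7A10, SLC6A9 and SLC7A8 kept this order, whereas SLC7A5 and SLC3A2 lost it under each and SLC38A10 under that to the sum. Kashmiri D15 held the lowest value of 12 of the 32 members (37.5%, against 23.4% of all genes). For SLC6A12 that value was a listed 0. Kashmiri D15 held the highest value of 8 (25%), a share near the 26.2% of all genes. SLC1A2, SLC7A10 and SLC38A11 among these 8 reached 1 FPKM in that group alone. The values for each day are those of different months as well.

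The breeds were compared on each day in the same way. On D15, SLC7A7 (3.53), SLC43A2 (2.66) and SLC6A6 (2.45) were higher in Jersey by over 4-fold, 3 of 24 members, where 8.57% of all genes passed in either direction and 6.45% in this one. These are ratios of 14.8, 7.81 and 8.14 between the FPKM values. At 2-fold, 10 of the 24 were counted (41.7%, against 28.9%). SLC38A6 (1.37) and SLC36A1 (1.25) joined the higher genes, and SLC38A3 (-1.63), SLC7A5 (-1.53), SLC7A10 (-1.45), SLC1A2 (-1.08) and SLC7A4 (-1.08) were lower in Jersey. The median over the members was -0.05, against -0.13 over all genes.

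On D90, SLC7A4 was lower in Jersey by over 4-fold (-3.17), 1 of 26 members, where 11.7% of all genes passed and 5.17% were lower by that much. At 2-fold, 12 members were counted (46.2%, against 32.9%). SLC7A7 (1.90), SLC6A6 (1.76), SLC6A12 (1.65), SLC7A11 (1.62), SLC1A5 (1.45), SLC38A6 (1.33) and SLC36A1 (1.33) were higher in Jersey, and SLC38A3 (-1.66), SLC7A6 (-1.43), SLC1A4 (-1.14) and SLC38A5 (-1.03) were lower. On D250, SLC1A5 (2.304) and SLC7A7 (2.26) were higher in Jersey by over 4-fold, 2 of 27 members, where 12.3% of all genes passed and 10.9% were higher by that much. Neither was past that limit when the groups were rescaled by their upper quartile (1.81 and 1.77) or by their sum (1.53 and 1.499), although both were higher in Jersey under each scaling. At 2-fold, 11 of the 27 were counted (40.7%, against 34.5%), with SLC36A1 (1.65), SLC6A6 (1.53), SLC43A2 (1.37), SLC38A2 (1.34), SLC3A2 (1.03) and SLC7A1 (1.02) higher and SLC7A8 (-1.48), SLC1A3 (-1.27) and SLC6A9 (-1.07) lower. The medians over the members were 0.26 on D90 and -0.08 on D250, against -0.03 and -0.10 over all genes.

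**Figure D4:**
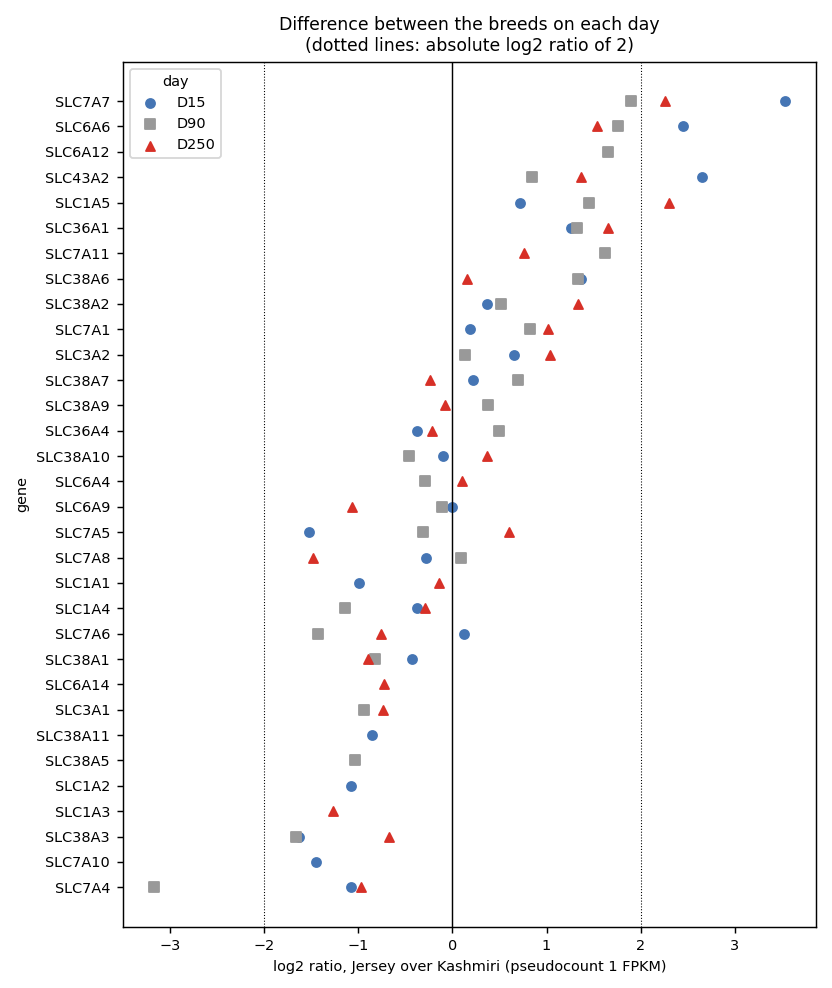
Log2 ratio of Jersey over Kashmiri FPKM (pseudocount 1) on D15, D90 and D250 for the transporters with at least 1 FPKM in either breed; 0 is equal, and positive values are higher in Jersey. SLC7A7, SLC6A6 and SLC36A1 lie above 1 on all 3 days, and SLC7A4 reaches -3.17 on D90.

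Over the 3 days together, 10 of 32 members were higher in Jersey on each day (31.2%, against 26% of all genes), namely SLC1A5, SLC3A2, SLC6A6, SLC7A1, SLC7A7, SLC7A11, SLC36A1, SLC38A2, SLC38A6 and SLC43A2. SLC38A6 was not among them after either rescaling. Another 9 were higher in Kashmiri on each day (28.1%, against 34.2%), namely SLC1A1, SLC1A4, SLC3A1, SLC6A9, SLC7A4, SLC7A10, SLC38A1, SLC38A3 and SLC38A11, and SLC6A9 left this set after rescaling to the sum. All 3 Jersey levels lay above all 3 Kashmiri levels for 7 of the 32 members (15.2% of all genes). SLC1A5, SLC6A6, SLC7A7 and SLC43A2 kept this under both rescalings, and SLC3A2, SLC36A1 and SLC38A6 did not. These 4 of 32 members are a share near that of all genes, 11.1% after rescaling by the upper quartile and 11.9% after rescaling to the sum. SLC6A6, SLC7A7 and SLC36A1 were higher in Jersey by at least 2-fold on each day (9.38% of members, against 7.24% of all genes), and after rescaling to the sum only SLC7A7 was. No member was higher in Kashmiri by that amount on each day, where 3.14% of all genes were. SLC6A9 was nearly equal on D15, at 5.03 FPKM in both breeds.

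The levels of several members were ordered over the groups like the marker sums. SLC6A6, SLC7A7 and SLC36A1 had the same order of the 6 groups as the summed neutrophil markers, Kashmiri D15 lowest, then Kashmiri D90, Kashmiri D250, Jersey D15, Jersey D90 and Jersey D250 (9.38% of the 32 members, against 2.58% of all genes). After rescaling by the upper quartile this held for SLC6A6 and SLC7A7, and after rescaling to the sum for SLC7A7. SLC38A6 had, as deposited, the order of the summed macrophage markers (0.916% of all genes). After rescaling by the upper quartile no member had this order, and after rescaling to the sum SLC6A6 had it instead. As deposited, no member had the order of the epithelial (1.01%) or T and NK cell markers (0.997%). The 9 neutrophil markers were all higher in Jersey on each day, with median log2 ratios of 3.73, 3.23 and 4.78. SLC1A1, SLC7A4, SLC7A5 and SLC38A3 shared with the epithelial sum their highest value on Kashmiri D15 and their lowest on Jersey D90, the same share of members (12.5%) as of all genes (12.5%). All 13 epithelial markers were lower on D90 than on D15 in both breeds, with medians of -2.37 in Kashmiri and -3.72 in Jersey. The part of these cell markers in the levels of the transporters was not tested. Of the markers only the 6 group values are known, so the points behind each order are few and share their libraries.

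**Figure D5:**
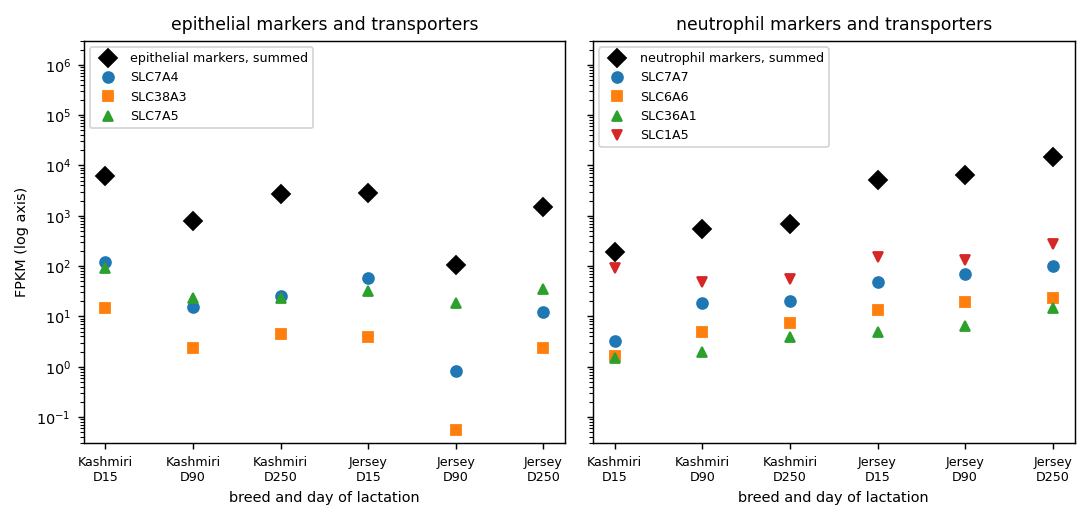
Summed FPKM of the epithelial markers beside SLC7A4, SLC38A3 and SLC7A5, and of the neutrophil markers beside SLC7A7, SLC6A6, SLC36A1 and SLC1A5, in the 6 groups on log axes; the genes were chosen after their values were seen. The neutrophil sum goes from 193 on Kashmiri D15 to 14508 on Jersey D250, and SLC7A7 goes from 3.29 to 99.5 between the same groups.

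Other genes of amino acid handling were described by lists. Of 20 targets of the integrated stress response, through which cells short of amino acids raise transporters such as SLC7A11 and SLC38A2, 18 could be compared between breeds. On D15, 5 were higher in Jersey by over 2-fold and 2 lower (15.9% and 13% of all genes). On D90 these counts were 7 and 3 (17% and 15.9% of all genes), and on D250 6 and 2 (22.8% and 11.7%). The medians were -0.06, 0.27 and 0.07. The transcription factor ATF4 was at 599, 543 and 453 FPKM in Kashmiri and at 670, 1147 and 1679 in Jersey. DDIT4, an inhibitor of mTORC1, was at 58.3, 52.1 and 59.3 FPKM in Kashmiri and at 453, 941 and 3376 in Jersey. NUPR1 was highest on Kashmiri D15, at 3705 FPKM, and at or below 1093 elsewhere. Members of the list thus went both ways, and its most abundant genes did not share 1 order of the groups.

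The genes of lysosomal amino acid sensing (26 found), on which SLC38A9 and SLC36A1 act, had medians between -0.32 and 0.22 in the 9 comparisons, with members that went both ways. On D15, 3 of 25 were higher in Jersey by over 2-fold and 2 lower (15.9% and 13% of all genes). On D90, 7 of the 26 were higher and 2 lower (17% and 15.9% of all genes). On D250, 6 of the 26 were higher and none lower (22.8% and 11.7% of all genes). SESN2, a leucine sensor also in the stress response list, was chosen after its values were seen. It ran from 3.29 FPKM on Kashmiri D15 to 114 on Jersey D250. SESN1 and SESN3 were instead lower in Jersey on each day. SESN1 was at 4.01, 5.27 and 4.37 FPKM in Kashmiri and at 1.29, 1.39 and 2.63 in Jersey. SESN3 was at 7.12, 6.41 and 7.59 FPKM in Kashmiri and at 1.96, 3.23 and 4.51 in Jersey. LAMTOR4, a subunit of the Ragulator scaffold, was the most abundant, at 132 to 544 FPKM. Of 19 aminoacyl-tRNA synthetases, which charge tRNAs with the delivered amino acids, 6 were lower by over 2-fold and none higher on Kashmiri D90 than on D15 (18.8% and 14.7% of all genes), with a median of -0.74. In Jersey the same interval gave 3 lower and 2 higher, shares near those of all genes (16.9% and 12.8%), with a median of -0.30. The serine enzyme SARS went from 121 FPKM on Kashmiri D90 to 1294 on Jersey D250, and the tryptophan enzyme WARS from 125 on Jersey D90 to 625 on Kashmiri D15.

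Of 9 genes of glutathione synthesis and cystine use with at least 1 FPKM, the processes SLC7A11 serves, 3 were lower by over 4-fold on Kashmiri D90 than on D15 (5.16% of all genes). At 2-fold the same 3 were lower and none higher (18.8% and 14.7% of all genes). The list's median was -0.79, against -0.01 over all genes. In Jersey the median over the 8 genes compared was 0.30 for that interval, against -0.07 over all genes. Of these 8 genes, 3 were higher and 2 lower by over 2-fold (12.8% and 16.9% of all genes). At 4-fold, 1 was lower and none higher (3.78% and 2.98% of all genes). That gene, GSS, was lower by over 4-fold on D90 in both breeds. It went from 61.0 to 7.06 FPKM in Jersey and from 162 to 14.9 in Kashmiri. GGT5, an ectoenzyme of the gamma-glutamyl transferase family, was at 17.5, 3.47 and 5.43 FPKM in Kashmiri and at 67.6, 199.6 and 257 in Jersey. Among carriers of other families (18 found), the lysosomal peptide and histidine carriers SLC15A3 and SLC15A4 led. SLC15A3 was at 2.71, 20.5 and 19.4 FPKM in Kashmiri and at 46.9, 105.8 and 100.8 in Jersey, an order close to that of SLC7A7. Over 15 of these carriers the medians of Jersey over Kashmiri were -0.07, 0.03 and -0.62.

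Of 19 genes of amino acid breakdown and conversion, SDS, the serine dehydratase, had the highest mean, with 186, 209 and 320.0 FPKM in Kashmiri and 5009 and 5469 on Jersey D15 and D90, but was listed at 0 on Jersey D250. ARG2, the mitochondrial arginase, was at 16.1, 14.1 and 19.5 FPKM in Kashmiri and at 70.4, 194 and 371 in Jersey. GLUL, which makes glutamine, was at 37.8, 78.1 and 71.2 FPKM in Kashmiri and at 144, 120 and 183 in Jersey. Like SLC1A5 and SLC7A7, both genes were higher in each Jersey group than in all 3 Kashmiri groups. OAT, which makes glutamate semialdehyde from ornithine, was highest on Kashmiri D15, at 166 FPKM, and between 54.1 and 119 in the other groups. The list's medians for Jersey over Kashmiri were -0.23, -0.15 and -0.56. The last of these includes SDS at its listed 0.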

How the data were processed

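According to the study's methods, the authors used Trimmomatic for trimming, Bowtie and TopHat for alignment to UMD 3.1, and Cufflinks with Cuffdiff for quantification. The deposited values are FPKM, 1 per gene and group, in which the 2 or 3 samples of a group are combined. The precision of a value is therefore unknown. The authors' own comparisons were not used. Members were the names matching the 7 families, and where a name stood on several entries the one of highest mean was taken. SLC43A1, SLC6A8 and SLC7A13 were not analysed here. The members and lists were chosen with earlier results of these data known. All members with at least 1 FPKM in a group were named with values, the others with their highest FPKM except 1 that is not reported here, and from each other list at most 5 genes of the highest mean. Log2 ratios used a pseudocount of 1 FPKM and genes with at least 1 FPKM in either group, in 9 comparisons. Other pseudocounts, filters, limits, scalings and handling of repeated names were tried. Calculations (Python 3.11.15, numpy 2.4.6, pandas 2.3.3, matplotlib 3.10.9) were tested on simulated data. No sequences are shown, since no file used here held them for these genes.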

Additional observations from a re-analysis of the deposited data

How the results depend on the processing

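No paired analysis was possible because the table holds 1 value per group. For the same reason no sample could be left out in turn. No member past 4-fold changed direction. A pseudocount of 0.1 FPKM raised the members past 4-fold to 8, 2 and 8 (Kashmiri D90 over D15, D250 over D90, D250 over D15), to 4 and 4 (Jersey D90 over D15, D250 over D90) and to 6, 4 and 4 (Jersey over Kashmiri on D15, D90 and D250). With a limit of 2-fold the counts were 13, 5 and 12 in Kashmiri, 5, 7 and 9 in Jersey and 10, 12 and 11 between the breeds. Rescaling by the upper quartile left 0 members on D250 between the breeds and 1 for Kashmiri D250 over D15. Rescaling by the sum without the milk protein genes gave 1 (lower in Jersey) on D250 and 3 on D90 between the breeds, 5 (all higher) for Kashmiri D250 over D15 and 1 for D250 over D90, and moved the members' median for Kashmiri D250 over D15 to 1.14, where that of all genes was 0.77. The cause of these shifts was not tested. For the smaller pseudocount and for both rescalings, the share of all genes past 4-fold is not given. These counts therefore cannot be set against all genes. The breed median on D15 was -0.05 as reported and 0.36 under the last scaling, a change of sign. The median over all genes changed sign as well, from -0.13 to 0.24. A filter of 0.01 FPKM, summed entries and leaving out joined names kept all counts of members past 4-fold within 1.5 times. With the filter of 0.01 FPKM, which lets in low genes, the members' medians came close to those of all genes, at 0.04 against 0.02 for Kashmiri D250 over D15 and 0.03 against 0.01 for Jersey D250 over D15. The counts of members lowest on D90 stayed within 1.5 times under both scalings and with summed entries. With the depth behind each FPKM unknown, differences among members near or below 1 FPKM cannot be judged.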
